A study of Mus musculus with 18 samples.

Results

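The cytochrome P450 genes of the mouse distal colon are described here across an Il10 knockout (Il10KO) series. They were taken as every row of the deposited gene tables whose symbol begins with Cyp, a number and a letter, which gave 45 of 16321 genes. Of these 45 genes, 7 belong to Cyp2c, 9 to Cyp2d, 1 to Cyp3a, 11 to Cyp4 and 17 to other families. All 45 passed the filter on low counts and were among the 16300 genes tested. The Cyp2d genes include the annotated pseudogenes Cyp2d33-ps, Cyp2d34-ps and Cyp2d37-ps, and the Cyp4 genes include Cyp4f41-ps. Transcripts of 129 P450 symbols were quantified, and the 84 symbols outside the gene table are not analysed here. Of these 84, 42 had 0 counts in every library and 78 summed to under 50 counts over the 18 libraries. The rest reached 50 counts or more, and why they are absent was not examined.

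Bulk polyA RNA was sequenced from distal colon biopsies of BALB/c mice. The groups were Il10KO mice at 6, 8, 10, 12 and 14 weeks of age and wild type (WT) mice at 6 weeks, with 3 mice in each group and 18 libraries in all. Both genotypes share the BALB/c background; the labels give no further detail of the knockout allele. IL-10 is an anti-inflammatory cytokine, and mice without it are a widely used model of spontaneous colitis. No WT mice older than 6 weeks were included, so age and the knockout's effect at later ages cannot be told apart. The 3 WT mice all came from cage G and no other mouse did, so the effect of the cage and that of the genotype cannot be told apart. The Il10KO mice came from cages A to F.

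Cytochrome P450 enzymes are haem proteins that insert an oxygen atom into fats, sterols, retinoids, drugs and dietary chemicals. Most sit in the endoplasmic reticulum and receive electrons from NADPH through the reductase Por, while a few, such as Cyp27a1 and Cyp11a1, work in mitochondria with ferredoxin. Cyp1, Cyp2 and Cyp3 enzymes act largely on foreign compounds and on arachidonic acid, Cyp4 enzymes hydroxylate the tail of fatty acids and leukotrienes, and the remaining families make or break steroids, bile acids, oxysterols, vitamin D and retinoic acid. In the gut many of these genes are expressed by the absorptive epithelium.

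Many of the members lie side by side. On chromosome 19 (GRCm38), Cyp2c55 (39007019 to 39042693, forward strand) is 18321 bases from Cyp2c65 (39061015 to 39093944, forward strand), and Cyp2c67, Cyp2c68, Cyp2c40 and Cyp2c69 follow on the reverse strand between 39608842 and 39886799. Cyp2c23 is separate, at 44005022 to 44029208. The 9 Cyp2d genes lie within 424 kb of chromosome 15, from 82370527 to 82794294, and 7 Cyp4f genes lie within 513 kb of chromosome 17, from 32452723 to 32965718. Near-identical neighbours limit the assignment of reads. The share of 31-base words of a gene's transcripts that other genes also hold was 72.6% for Cyp2c40, 67.6% for Cyp2c67, 64.9% for Cyp2c69, 62.0% for Cyp2c68, 48.6% for Cyp2d10, 35.4% for Cyp2c65 and 34.1% for Cyp2d9. It was 2.9% for Cyp2c55, 0.504% for Cyp2s1 and 0.308% for Cyp3a13. The split of reads among Cyp2c40, Cyp2c67, Cyp2c68 and Cyp2c69 is therefore uncertain, and their sum is given beside them.

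Promoters of the Cyp2c cluster are shown because 6 of its genes fell together at week 10, as described below. RefSeq promoter sequences (GRCm38.p6, 250 bases before to 50 after the start site) matched 32 of the 45 members. The letters CAAAGTCCA, the element preferred by the HNF4 nuclear receptors, were searched on both strands and occurred in 5 members, all in this cluster: Cyp2c65, Cyp2c67, Cyp2c68, Cyp2c40 and Cyp2c69. They occurred in 0.475% of all 32851 promoters. In each of the 5 the element lay on the gene's own strand. It ended 107, 116, 68, 36 and 66 bases before the start site of Cyp2c65, Cyp2c67, Cyp2c68, Cyp2c40 and Cyp2c69, in that order. The 49-base windows below, read 5′ to 3′ on the gene's strand with the element in capitals, lie at chr19:39060870-39060918 (forward strand) for Cyp2c65, chr19:39649139-39649187 (reverse strand) for Cyp2c67, chr19:39741150-39741198 (reverse strand) for Cyp2c68, chr19:39812831-39812879 (reverse strand) for Cyp2c40, chr19:39886816-39886864 (reverse strand) for Cyp2c69.
Cyp2c65: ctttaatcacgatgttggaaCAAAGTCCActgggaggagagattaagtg
Cyp2c67: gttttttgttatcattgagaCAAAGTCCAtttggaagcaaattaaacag
Cyp2c68: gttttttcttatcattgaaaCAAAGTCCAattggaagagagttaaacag
Cyp2c40: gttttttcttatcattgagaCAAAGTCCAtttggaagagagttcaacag
Cyp2c69: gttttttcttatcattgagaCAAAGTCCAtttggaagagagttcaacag

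The windows of Cyp2c40 and Cyp2c69 are identical, and those of Cyp2c67 and Cyp2c68 are close variants of them, while the Cyp2c65 window differs outside the element. The Cyp2c55 promoter (chr19:39006769-39007068, forward strand, 300 bases, RefSeq GRCm38.p6) holds no CAAAGTCCA, and the capitals in it mark TATAAA, letters found in 13.6% of all promoters. TATAAA also occurs in the promoters of Cyp2c65, Cyp2c67, Cyp2c40 and Cyp2c69, outside the windows shown. A match of letters is a description and not a binding site.
Cyp2c55: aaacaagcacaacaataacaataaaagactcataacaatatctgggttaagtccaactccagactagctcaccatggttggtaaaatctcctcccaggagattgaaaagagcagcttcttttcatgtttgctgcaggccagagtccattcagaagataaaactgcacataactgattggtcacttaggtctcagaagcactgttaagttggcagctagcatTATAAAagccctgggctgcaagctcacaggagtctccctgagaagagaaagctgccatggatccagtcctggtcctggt

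Each library held 26495521 to 35497101 estimated counts, of which P450 genes made up 0.0436% to 0.176%. Il10 is outside the gene table, and its single transcript had 0 estimated counts in all 15 Il10KO libraries and 1, 0 and 3 in the WT libraries, too few to check the genotype. Pan-epithelial markers, 12 of 12 present, summed to at least 13326 CPM (counts scaled to library size with TMM factors) in every library, so markers of the labelled tissue were present. RNA integrity numbers (RIN) were 8.4 to 9.3 except in week 14 replicates 2 and 3, at 6.5 and 5.8. The 3 week 14 mice stood apart from each other: replicate 1 had a summed P450 TPM within the week 6 range, a neutrophil marker sum of 192 CPM and normal RIN, against sums of 16821 and 11690 CPM in replicates 2 and 3. Week 10 replicate 1 also stood apart, with a neutrophil sum of 6015 CPM against 983 and 635 CPM in replicates 2 and 3. Lipocalin, a marker of gut inflammation that the labels give in ng/g, lay between 2.27 and 4.72 in the week 6 knockouts. Its range was 102 to 136 among week 8 knockouts and 340 to 554 among week 10 knockouts. Week 12 replicates 1, 2 and 3 had 2574, 444 and 1767 ng/g, and the week 14 replicates, in that order, 2044, 3758 and 4289 ng/g. Week 14 replicate 1 therefore exceeded every knockout of weeks 6, 8 and 10 in lipocalin, despite its low neutrophil sum.

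A few genes led the colon's P450 RNA. By mean TPM (transcript abundance scaled for length and depth) over all 18 libraries, the leading members were Cyp2d34 (128), Cyp2d10 (125), Cyp2c55 (72.7), Cyp2d9 (54.8), Cyp2s1 (46.3), Cyp2d12 (41.1), Cyp4f16 (40.0), Cyp2f2 (32.9), Cyp2c68 (32.6) and Cyp4f13 (26.3). Cyp3a13, the only Cyp3a gene of the table, averaged 9.45 TPM.

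Summed over the 45 genes, TPM was 1290, 879 and 941 in the Il10KO week 6 libraries. The week 8 libraries had 1002, 683 and 649 TPM, those of week 10 had 243, 447 and 477, those of week 12 had 687, 618 and 772, and those of week 14 had 1132, 204 and 210. The WT libraries had 1381, 878 and 1305. In these TPM sums, which carry no TMM scaling, all 3 week 10 libraries and 2 of the 3 week 14 libraries lay below every week 6 library. On the same sums week 12 lay between week 10 and week 6 without overlap. Counts scaled with TMM factors gave a different order: week 12 overlapped week 6, and week 14 replicates 2 and 3 were not the lowest. As a share of counts, those 2 libraries (0.0509% and 0.0490%) lay within the week 10 range (0.0436% to 0.0709%). The Cyp2c share of this sum was 25.6%, 22.8% and 27.1% in Il10KO mice of week 6. It was 10.6%, 6.78% and 6.57% in those of week 8, 1.67%, 2.93% and 1.67% in those of week 10, 4.59%, 5.31% and 6.58% in those of week 12, and 14.4%, 5.91% and 4.61% in those of week 14, against 20.3%, 15.3% and 21.9% in WT.

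**Figure D1:**
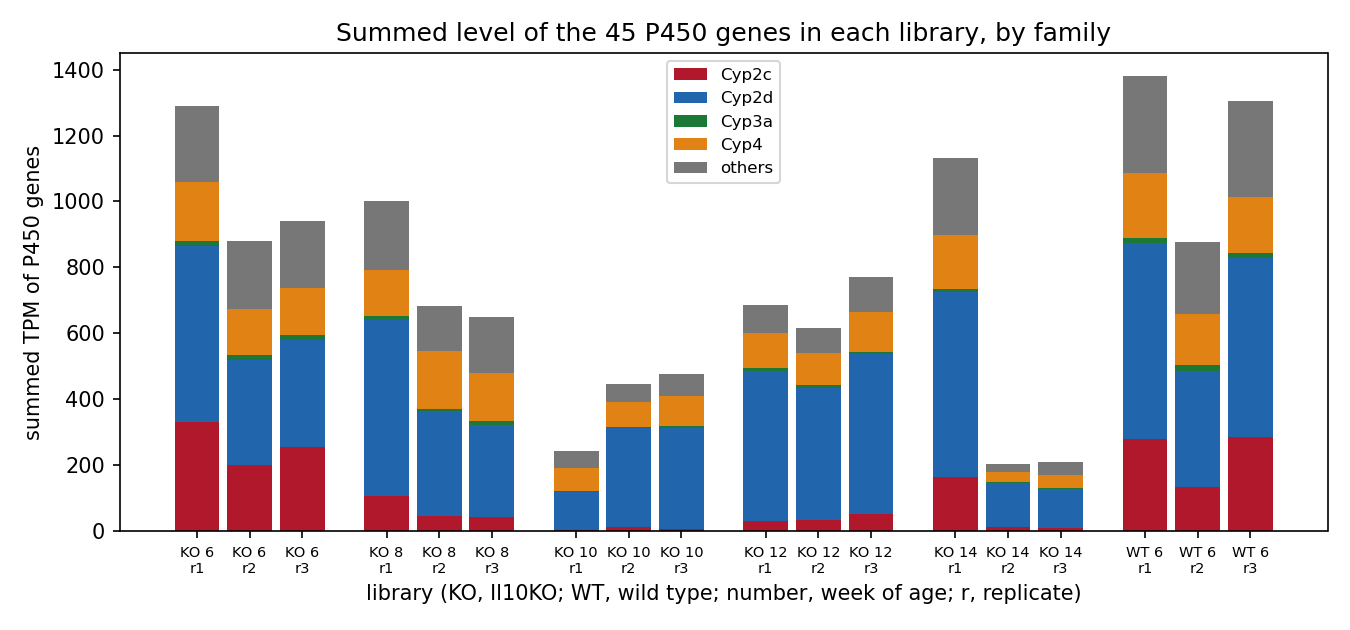
Summed TPM of the 45 P450 genes in each of the 18 libraries (bars, stacked by family; x axis, genotype, week of age and replicate). The 3 week 10 libraries sum to 243 to 477 TPM, and week 14 replicate 1 stands at 1132 TPM beside 204 and 210 TPM in the other two mice of its group.

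No P450 gene separated Il10KO from WT mice at week 6 in edgeR's quasi-likelihood test with Benjamini-Hochberg adjustment over all genes, which is the test used throughout, with a threshold of 0.05. The test called 0 of the 45 members and 0% of all genes, with 2 members and 394 genes at an unadjusted p under 0.05; DESeq2 and limma on log2 TPM also called 0 members. The members' median log2 fold change was -0.17, beside -0.01 for all genes. In 6 members every Il10KO library lay below every WT library, and in 1 every library lay above (13.3% and 2.22% of members, against 13.1% and 12.3% of all genes, or 25.4% in either direction).

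The members of smallest p were Cyp11a1 and Cyp26b1. Cyp11a1, which cleaves the cholesterol side chain at the start of steroid synthesis, had 1.41, 0.285 and 0.752 CPM in Il10KO and 5.12, 2.52 and 5.77 CPM in WT mice. The groups did not overlap (log2 fold change -2.45 ± 0.76, SE; unadjusted p = 0.00549, edgeR adjusted p = 1). A 539-base transcript carried 96.1% of its TPM, against 2.57% for its 2120-base transcript. Cyp26b1, which breaks down retinoic acid, had 0.398, 1.36 and 1.03 CPM in Il10KO and 0.509, 15.4 and 4.92 CPM in WT mice, with overlap. A fit with its own weight for each group, chosen after seeing the data, called 2 members lower, Cyp11a1 and Cyp2b10.

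At week 8, against week 6 in Il10KO mice, 0 members were called, beside 0.0675% of all genes. An unadjusted p under 0.05 was found in 5 members, a count given without that of all genes. DESeq2 also called 0. Cyp2c55, a colonic enzyme that hydroxylates arachidonic acid in the mouse, varied widely between mice: 67, 2.33 and 4.14 CPM at week 8 against 318, 182 and 235 CPM at week 6. Every week 8 library was below every week 6 library, and replicates 2 and 3 were lower than replicate 1 (-3.32 ± 1.57, adjusted p = 0.706). In 12 members (26.7%) all week 8 libraries were lower, against 12.8% of all genes, and in 2 members (4.44%) all were higher, against 11.1% (23.9% of all genes in either direction).

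Week 10 was the age with the most P450 genes called lower against week 6 in the test used throughout. Against Il10KO week 6, 17 of 45 members (37.8%) were called lower and 0 higher, beside 9.48% and 14.6% of all genes (24% in either direction). The members' median log2 fold change was -0.86, beside 0.01 over all genes. Members with every week 10 library below every week 6 library numbered 24 (53.3%, against 30.3% of all genes), and 2 (4.44%) had the groups apart in the other direction, against 27.5%; 57.8% of all genes were apart in either direction. Some other methods ranked the ages differently. Counting calls in either direction against week 6, limma on log2(TPM + 1) called 17 members at week 10 and 20 at week 14. Fits of the compared groups alone called 16 at week 10 and 19 at week 12. The shares of all genes called by these other methods are not given here. In these bulk libraries, fewer cells of a type and less RNA per cell cannot be told apart.

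By family, 6 of 7 Cyp2c genes, 0 of 9 Cyp2d genes, Cyp3a13, 3 of 11 Cyp4 genes and 7 of 17 others were called lower at week 10. The median log2 fold changes were -2.25 for Cyp2c, -0.23 for Cyp2d, -0.58 for Cyp4 and -1.10 for the others. No difference between families was tested.

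The call depended on how cage was treated. With cage as a factor among the Il10KO libraries 0 of the 44 members tested were called (2 of all genes). Cyp2b10 was not tested in that fit, and the other 16 members had an adjusted p of 0.103 to 0.373. The fold changes kept their sign: within cage B and within cage F, the cages with mice of both ages, all 17 were lower at week 10, with medians of -2.66 and -2.49 over the 17 and -1.63 and -0.61 over the 45. Each of these cages gave 1 library per age, and the week 10 library of cage B is replicate 1. Without week 10 replicate 1, 4 members were called: Cyp2c69, Cyp2c68, Cyp3a13 and Cyp4f39. Without any 1 of the week 6 libraries the count was 6 to 8.

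Beside this fall, mature colonocyte markers (12 of 12 present) summed to 3331 to 7340 CPM at week 10 against 7512 to 7906 at week 6, goblet cell markers (8 of 8) to 3320 to 8466 against 9815 to 11872, and neutrophil markers (8 of 8) to 635 to 6015 against 160 to 198. Pan-epithelial markers summed to 13393 to 17790 CPM at week 10 and 13326 to 15890 at week 6. Markers of other cells also differed without overlap (8 of 8 present in each list): smooth muscle summed to 1443 to 5911 CPM at week 10 against 6994 to 7770 at week 6, fibroblasts to 806 to 1287 against 2192 to 3281, endothelium to 44.2 to 72.0 against 157 to 182, and enteric neurons and glia to 9.07 to 19.7 against 34.3 to 37.9. Crypt stem cell markers were also lower without overlap, at 288 to 452 CPM against 458 to 548, as were adipocyte markers (7 of 8 present), at 15.2 to 27.5 CPM against 30.8 to 124. The part of these shifts in the P450 changes was not tested.

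**Figure D2:**
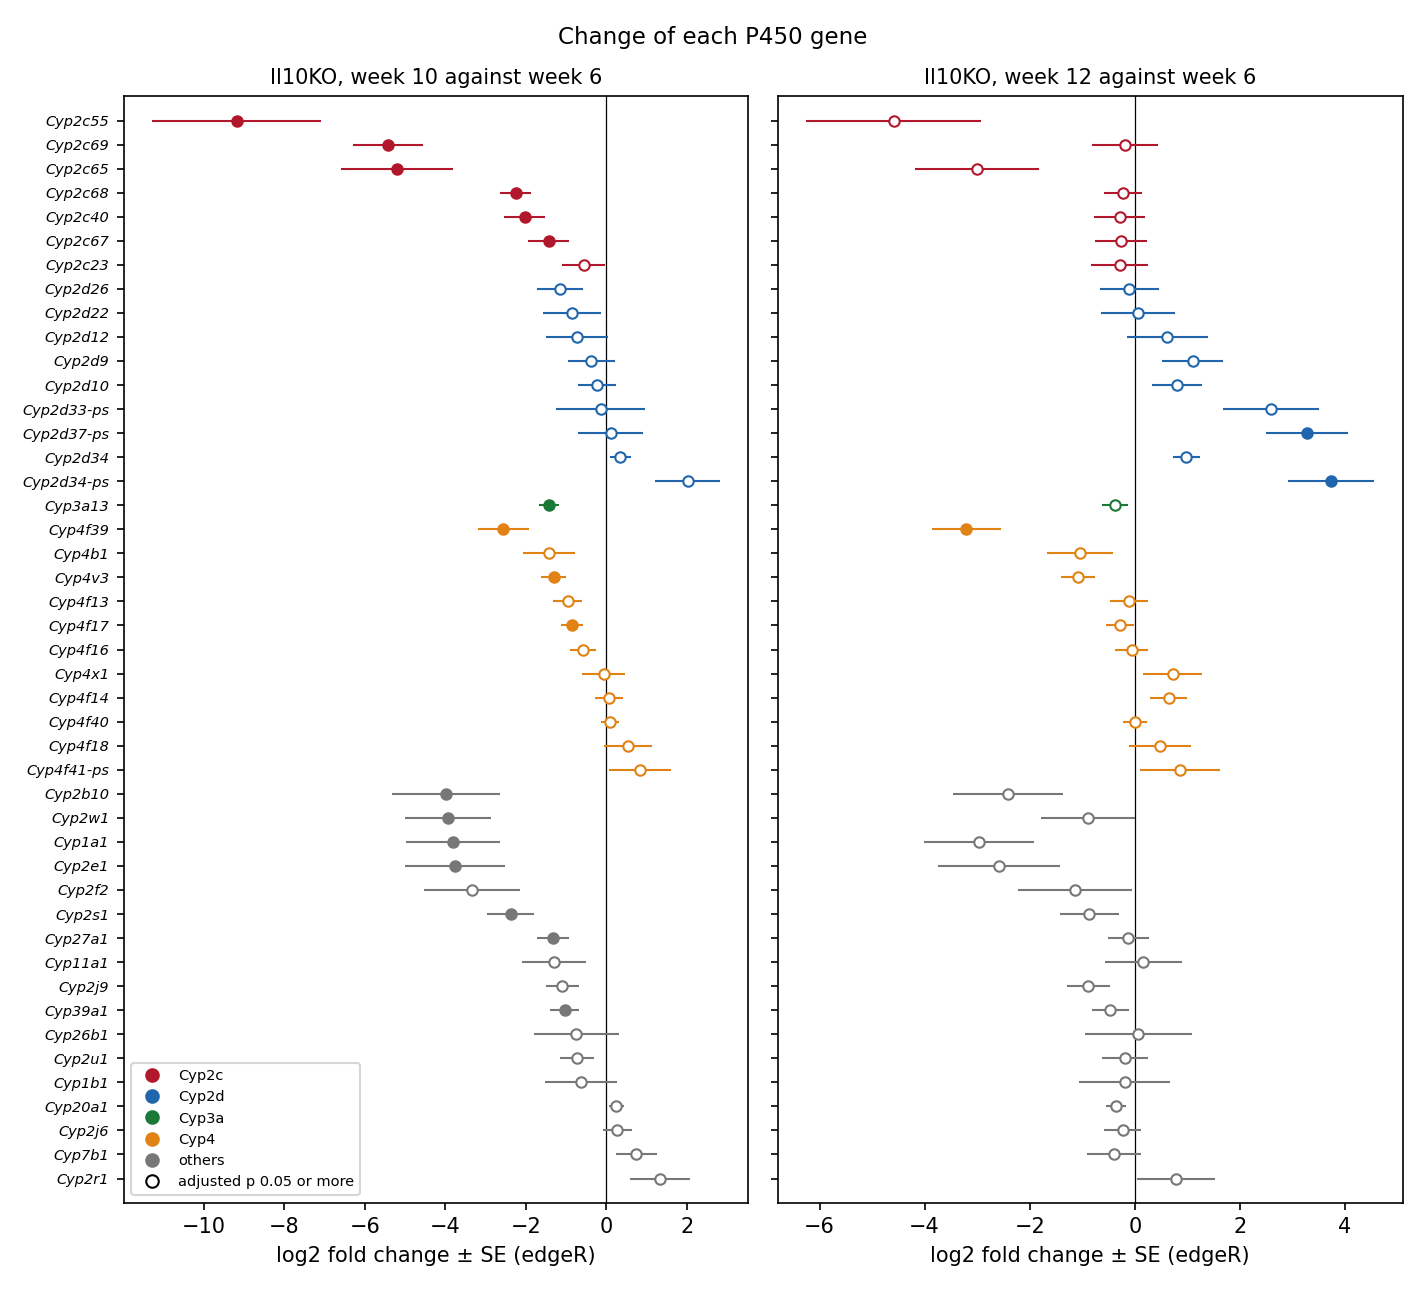
Log2 fold change (x axis, edgeR, error bars 1 SE) of each P450 gene (y axis, grouped by family) at Il10KO week 10 and week 12, each against week 6; filled points have an adjusted p under 0.05. At week 10 there are 17 filled points, all lower, and 6 of them are Cyp2c genes; at week 12 there are 3.

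All 6 Cyp2c genes of the chromosome 19 cluster fell at week 10. Cyp2c55 had 0.115, 1.02 and 0.120 CPM at week 10 against 318, 182 and 235 CPM at week 6, with no overlap (-9.17 ± 2.10, edgeR adjusted p = 0.0121). Cyp2c65, its neighbour, which also acts on arachidonic acid, had 0, 0.171 and 0.120 CPM against 2.51, 4.68 and 4.26 CPM (-5.20 ± 1.39, adjusted p = 0.0196). Every week 10 value of either gene was at or under 1.02 CPM, and the groups did not overlap.

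Cyp2c68, the most abundant of the 4 near-identical genes, had 6.00, 18.4 and 7.89 CPM at week 10 against 53.7, 50.2 and 50 CPM at week 6 (-2.25 ± 0.38, edgeR adjusted p = 0.00339). Cyp2c69 had 0, 0.102 and 0.0602 CPM against 3.67, 2.18 and 1.82 CPM (-5.42 ± 0.86, adjusted p = 0.00282). Neither gene's groups overlapped. Cyp2c40 fell by 2.02 ± 0.51 (adjusted p = 0.0168) and Cyp2c67 by 1.43 ± 0.51, just within the threshold. Summed over these 4 genes, whose reads cannot be assigned with confidence, levels were 6.53, 21.0 and 8.82 CPM at week 10 against 61.5, 56.1 and 56.0 CPM at week 6, and the groups of this sum did not overlap. Most of the Cyp2c40 and Cyp2c69 signal (94.8% and 86.3% of TPM) was assigned to transcripts annotated for nonsense-mediated decay.

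Cyp2c23, which lies outside the cluster, had 0.730, 0.273 and 0.572 CPM at week 10 and 1.32, 0.379 and 0.627 CPM at week 6, with overlap (-0.56 ± 0.54, edgeR adjusted p = 0.415). Hnf4a, which encodes a receptor that binds the element shown above and was chosen for that after values were seen, averaged 426 ± 130 CPM at week 10 and 560 ± 5.91 CPM at week 6 (SD, n = 3 each). It did not pass the test (-0.40 ± 0.40, edgeR adjusted p = 0.440). The related receptor gene Hnf4g averaged 25.1 ± 6.94 CPM at week 10 and 22.4 ± 3.39 CPM at week 6 and did not pass either (0.16 ± 0.32, adjusted p = 0.699). Across the 5 Il10KO ages Hnf4g did pass (adjusted p = 0.0364), with its lowest mean at week 14, 10.9 ± 6.27 CPM.

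Cyp3a13, a drug-oxidising enzyme, had 8.26, 12.9 and 11.1 CPM at week 10 against 27.9, 29.1 and 29.7 CPM at week 6, without overlap and with little spread (-1.42 ± 0.25, edgeR adjusted p = 0.00382). Among Cyp4 genes, Cyp4f39, whose human counterpart hydroxylates very long fatty acids of the skin barrier, had 0.307, 0.205 and 0.271 CPM against 2.23, 0.885 and 1.54 CPM (-2.56 ± 0.63, adjusted p = 0.0149). Cyp4v3, a fatty acid hydroxylase, had 10.0, 13.0 and 12.8 CPM against 32.8, 31.1 and 24.7 CPM (-1.31 ± 0.32, adjusted p = 0.0148). Cyp4f17 fell by 0.86 ± 0.27. These groups did not overlap. The abundant Cyp4f16 and Cyp4f13 did not pass the test (-0.58 ± 0.31 and -0.96 ± 0.36, adjusted p = 0.159 and 0.0634), although week 10 lay below week 6 in both. Cyp4f40 had 36.4, 26.2 and 40.2 CPM at week 10 and 26.3, 32.9 and 36.9 CPM at week 6, with full overlap.

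Of the other families, Cyp2s1, an epithelial enzyme that acts on retinoids and eicosanoids, had 14.4, 33.7 and 23.2 CPM at week 10 against 113, 127 and 131 CPM at week 6 (-2.38 ± 0.58, edgeR adjusted p = 0.0152). Cyp2w1, known from fetal gut and colon tumours, had 0, 0.137 and 0.361 CPM against 2.20, 3.38 and 2.44 CPM (-3.93 ± 1.06, adjusted p = 0.0208). Both were lower in every week 10 mouse. Cyp2e1, which oxidises ethanol and small solvents, had 0.461, 1.06 and 0.0602 CPM against 17.6, 3.00 and 0.783 CPM, with overlap (-3.76 ± 1.24, adjusted p = 0.041).

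Cyp2f2, known for activating naphthalene in mouse lung, had 0.0384, 9.22 and 6.86 CPM at week 10 against 64.1, 51.5 and 47.2 CPM at week 6. The groups were apart, with replicate 1 far below the others, and the test was just missed (-3.33 ± 1.18, edgeR adjusted p = 0.0514). Low counts underlie the calls of Cyp1a1, a target of the aryl hydrocarbon receptor, with 3 counts at week 10 and 51 at week 6, and of Cyp2b10, a target of the receptor CAR, with 1 and 23. The scaled ratio of week 10 to week 6 was 0.0639 for Cyp1a1 (exact 95% interval 0.0128 to 0.198) and 0.0473 for Cyp2b10 (0.00115 to 0.291), intervals that cover counting error only.

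Genes of sterol metabolism were also among those called. Cyp27a1, the mitochondrial sterol hydroxylase of bile acid synthesis, had 4.69, 11.9 and 9.97 CPM at week 10 against 24.8, 22.3 and 19.9 CPM at week 6 (-1.33 ± 0.40, edgeR adjusted p = 0.0309). Cyp39a1, an oxysterol hydroxylase, fell by 1.03 ± 0.36 (adjusted p = 0.0471). Cyp7b1, also an oxysterol hydroxylase, had 5.11, 2.56 and 1.87 CPM at week 10 and 2.20, 1.90 and 1.60 CPM at week 6 and did not pass (0.74 ± 0.51, adjusted p = 0.262). Cyp2j6, with 92.3, 36.4 and 34.4 CPM against 42.6, 51.0 and 41.0 CPM, was high in week 10 replicate 1 and low in replicates 2 and 3.

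**Figure D3:**
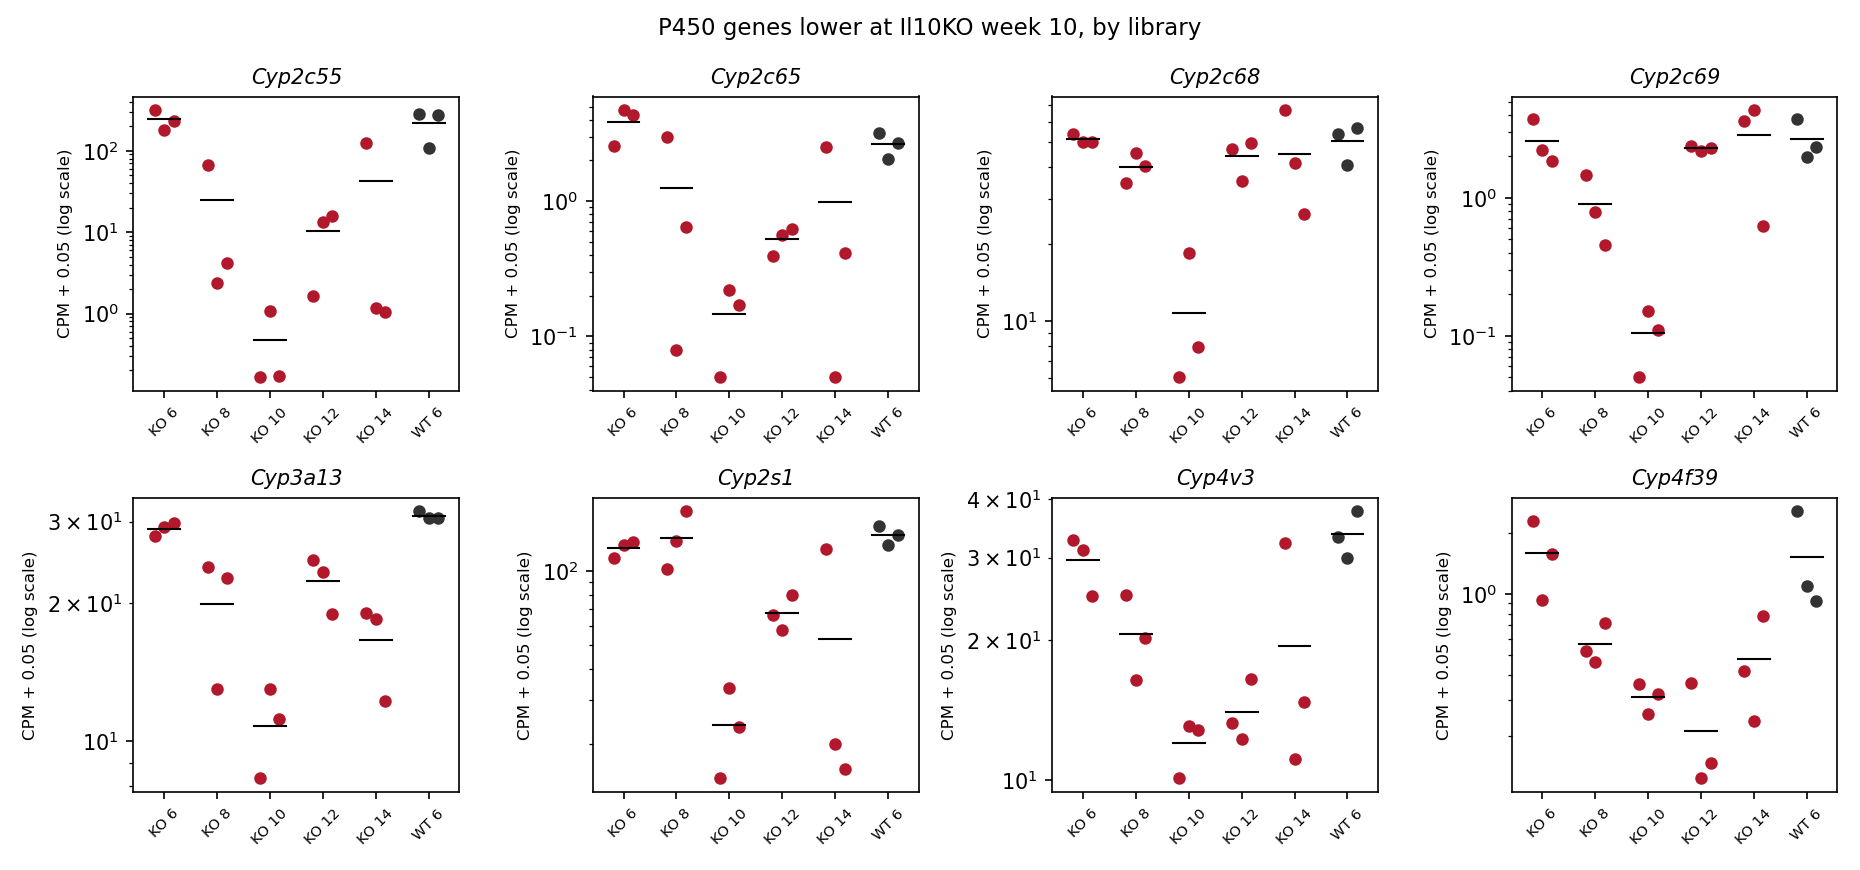
CPM plus 0.05 on a log axis for 8 P450 genes called lower at Il10KO week 10 (points, mice; bars, group means; x axis, genotype and week of age). Cyp2c55 stands at 0.115 to 1.02 CPM at week 10 and 182 to 318 CPM at week 6, and for Cyp2c68 all week 12 mice lie above all week 10 mice.

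The Cyp2d genes behaved differently among mice at week 10. Cyp2d10 had 16.5, 102 and 88.2 CPM at week 10 and 105, 69.7 and 67.3 CPM at week 6, Cyp2d12 had 2.61, 48.8 and 29.7 CPM and 78.0, 28.1 and 28.8 CPM, and Cyp2d9 had 12.2, 62.0 and 40.1 CPM and 79.8, 33.0 and 35.1 CPM. In all 3 genes replicate 1 lay below every week 6 mouse and the other week 10 mice lay within the week 6 range. Cyp2d34, the member with the highest mean TPM, had 144, 200 and 113 CPM at week 10 and 146, 108 and 105 CPM at week 6 (0.35 ± 0.26, edgeR adjusted p = 0.296).

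Against week 8, week 10 gave 0 called members, beside 0.196% of all genes (0.117% higher and 0.0798% lower). Of the members, 17 had an unadjusted p under 0.05 in edgeR, DESeq2 called 8 and limma 0. The matching counts over all genes are not given here, so these counts do not set P450 genes apart. The members' median was -0.72, beside -0.02 for all genes, and 14 members (31.1%) were lower in every week 10 library than in every week 8 library, against 11.5% of all genes, while 2 (4.44%) were higher, against 12.5%. Cyp2s1 was apart between these ages, with 14.4, 33.7 and 23.2 CPM at week 10 against 102, 131 and 174 CPM at week 8 (-2.51 ± 0.59, adjusted p = 0.0747), as was Cyp2c68 with 6.00, 18.4 and 7.89 CPM against 34.4, 45.4 and 40.3 CPM (-1.90 ± 0.38, adjusted p = 0.0538).

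Week 12 levels were higher than week 10 levels in most members. Against week 10, the test called 2 members higher and 0 lower, beside 0.209% and 0.239% of all genes (0.448% in either direction). The median was 0.84, beside -0.01 over all genes, and 38 of 45 members had a positive fold change, including 7 of 7 Cyp2c and 9 of 9 Cyp2d genes. In 21 members (46.7%) every week 12 library lay above every week 10 library, against 11.7% of all genes (23.7% in either direction). In 2 members (4.44%) every week 12 library lay below, against 12% of all genes. Within cage B, the one cage with mice of both ages, the median was 1.21 and 37 members were positive. That compares 1 mouse with 1 mouse, and the week 10 mouse is replicate 1, which stood apart from its group.

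The called members were Cyp2c69, with 2.35, 2.14 and 2.26 CPM at week 12 against 0, 0.102 and 0.0602 CPM at week 10 (5.24 ± 0.86, edgeR adjusted p = 0.0187), and Cyp2c68, with 47.0, 35.2 and 49.5 CPM against 6.00, 18.4 and 7.89 CPM (2.03 ± 0.38, adjusted p = 0.0371). Both calls were lost with cage as a factor (edgeR adjusted p = 0.539 for each), on both TPM scales, and when week 10 replicate 1, week 10 replicate 3 or a single week 12 library was left out. Their near-identical sequences mean that these may not be separate measurements. The sum over Cyp2c40, Cyp2c67, Cyp2c68 and Cyp2c69 was 52.3, 40.5 and 55.8 CPM at week 12. Cyp2c55 had 1.60, 13.3 and 15.8 CPM at week 12, above week 10 in every library and below week 6 in every library, and passed neither test (adjusted p = 0.243 and 0.106).

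Compared with week 6, week 12 had 3 called members, 2 higher and 1 lower, beside 1.36% and 0.491% of all genes (1.85% in either direction). Groups did not overlap in 8 members that were higher and 13 that were lower, 17.8% and 28.9% of members, against 32.8% and 32.9% of all genes (65.6% in either direction). The members called higher were pseudogenes of the Cyp2d cluster. Cyp2d34-ps (chromosome 15, 82608921 to 82612915) had 3.70, 2.40 and 2.71 CPM at week 12 against 0.398, 0.158 and 0.0940 CPM at week 6 (3.73 ± 0.82, edgeR adjusted p = 0.0397). Cyp2d37-ps (82688750 to 82693148) had 3.32, 1.71 and 1.40 CPM against 0.184, 0.221 and 0.251 CPM (3.27 ± 0.78, adjusted p = 0.0455). Neither overlapped, and Cyp2d34-ps lies 3049 bases from Cyp2d34.

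Their coding neighbour Cyp2d34 had 256, 255 and 199 CPM at week 12 against 146, 108 and 105 CPM at week 6, without overlap, and missed the threshold (0.98 ± 0.26, edgeR adjusted p = 0.0664). Cyp2d10, with 154, 128 and 141 CPM against 105, 69.7 and 67.3 CPM, also had its groups apart (0.80 ± 0.48, adjusted p = 0.233). Over the 9 Cyp2d genes the median was 0.98, and 8 were positive. Cyp4f39 was called lower, with 0.315, 0.0727 and 0.0956 CPM at week 12 against 2.23, 0.885 and 1.54 CPM (-3.20 ± 0.65, adjusted p = 0.0331). With cage as a factor, and without any 1 library of either group, 0 of these 3 were called. A fit of these 2 groups alone called 19 members, among them the 3 named. The share of all genes called in that fit is not given here, so the 19 do not set P450 genes apart.

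**Figure D4:**
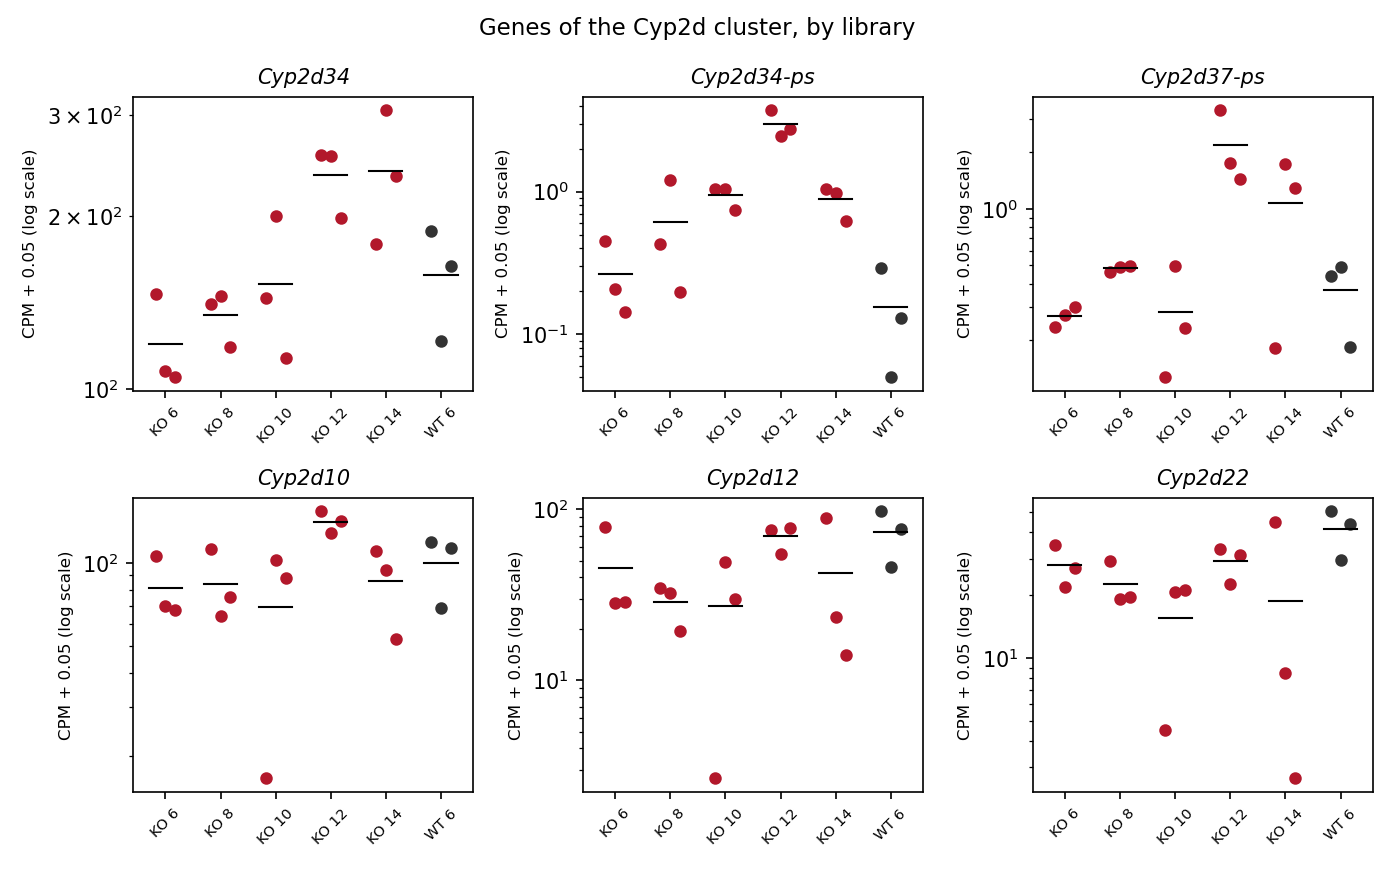
CPM plus 0.05 on a log axis for 6 genes of the Cyp2d cluster (points, mice; bars, group means; x axis, genotype and week of age). Cyp2d34-ps stands at 2.40 to 3.70 CPM at week 12 and 0.0940 to 0.398 CPM at week 6, while Cyp2d12 shows 1 low mouse, at 2.61 CPM, at week 10.

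Week 14 split by mouse. Cyp2c55 had 125, 1.12 and 0.987 CPM, Cyp2f2 94.3, 4.06 and 4.88 CPM, and Cyp2s1 123, 19.9 and 15.7 CPM in replicates 1, 2 and 3. Replicate 1 was the highest of the group in each, and replicates 2 and 3 are the libraries of RIN 6.5 and 5.8. Against week 6, 6 members were called, 2 higher and 4 lower, beside 24.5% and 8.56% of all genes (33.1% in either direction). Groups did not overlap in 2 members that were higher and 7 that were lower, against 19.2% and 21.5% of all genes (40.7% in either direction). The share called lower (8.89%) was close to that of all genes, and the share called higher (4.44%) was below it. Without replicate 1, 21 members were called, and without replicate 2 none, counts given without the shares of all genes. With cage as a factor and with RIN as a covariate, 0 members were called. Without replicates 2 and 3 together 1 mouse remains at week 14, so no count is given.

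Lower at week 14 were Cyp3a13, with 19, 18.4 and 12.2 CPM against 27.9, 29.1 and 29.7 CPM at week 6 (-0.81 ± 0.25, edgeR adjusted p = 0.0243), Cyp4f39 (-1.85 ± 0.61, adjusted p = 0.0327), Cyp1b1 (-2.96 ± 1.13, adjusted p = 0.0481) and Cyp1a1 (-2.84 ± 1.06, adjusted p = 0.0482). Cyp1a1 and Cyp1b1 had 0 counts in replicates 2 and 3. Higher was Cyp2d34, with 179, 307 and 235 CPM against 146, 108 and 105 CPM (1.01 ± 0.26, adjusted p = 0.0114), although in TPM its direction was the opposite (-0.24 on the log2(TPM + 1) scale, adjusted p = 0.458). Cyp2d37-ps, with 0.132, 1.68 and 1.25 CPM against 0.184, 0.221 and 0.251 CPM, overlapped (2.16 ± 0.78, adjusted p = 0.0439). Its fold change turned to -0.72 without the 2 libraries of RIN under 7, it was -0.34 within cage A, and 14 of 19 alternatives ended the call. Week 14 against week 12 gave 0 called members, beside 0.00613% of all genes, with 4 at an unadjusted p under 0.05 and 0 by DESeq2. Without week 14 replicate 1 the count was 10. The counts of 4 and 10 are given without those of all genes. Groups did not overlap in 1 higher and 3 lower members, 2.22% and 6.67%, against 3.33% and 5.44% of all genes (8.77% in either direction).

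**Figure D5:**
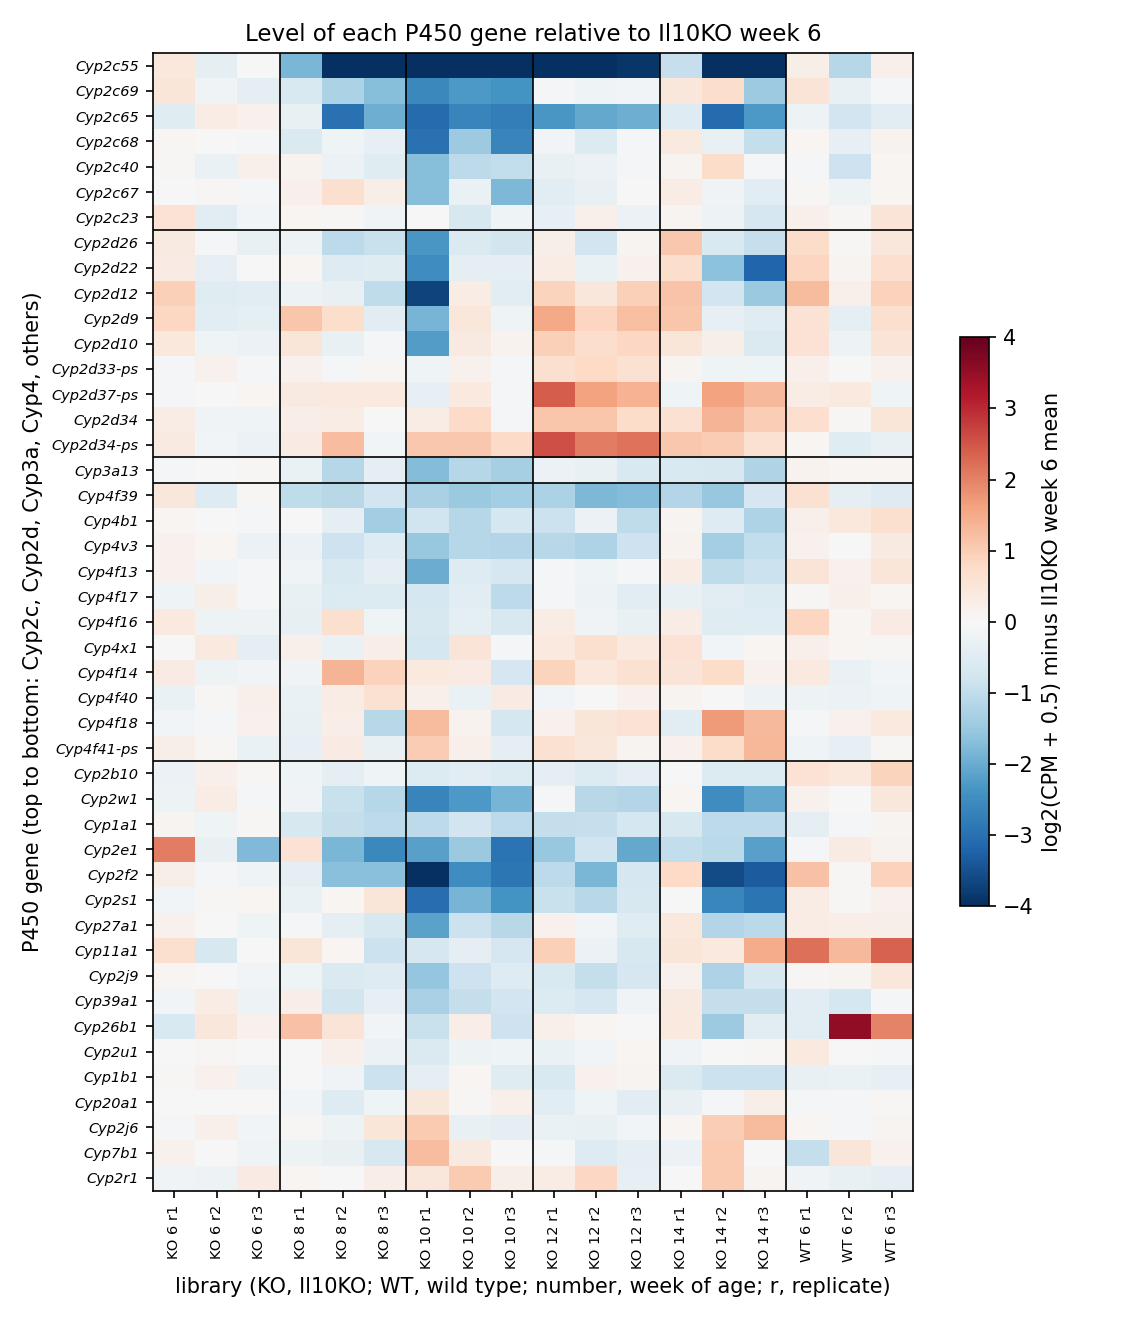
Level of each of the 45 P450 genes in each library (color, log2(CPM + 0.5) minus the Il10KO week 6 mean, clipped at 4 in either direction; rows, genes by family; columns, libraries). All 3 week 10 mice lie below all others for Cyp2c68 (6.00 to 18.4 CPM), and week 14 replicate 1 differs from replicates 2 and 3 of its group.

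Across the 5 Il10KO ages together, 14 of 45 members (31.1%) changed, beside 27.4% of all genes, so the share is near that of the whole table. They were Cyp2c40, Cyp2c55, Cyp2c65, Cyp2c68, Cyp2c69, Cyp2d34, Cyp2d33-ps, Cyp2d34-ps, Cyp2d37-ps, Cyp3a13, Cyp4f39, Cyp4v3, Cyp1a1 and Cyp2s1. The lowest adjusted p was 0.0155 (edgeR), for Cyp2c68, Cyp2c69, Cyp3a13 and Cyp4f39. Cyp2d33-ps, which passed here alone (adjusted p = 0.0434), had 0.372, 0.473 and 0.350 CPM at week 12 and at most 0.137 CPM in any other Il10KO library. With cage as a factor 0 were called.

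The other 23 members were never called in any comparison or across the ages. Their mean TPM ranged between 0.218 and 125, the upper value being Cyp2d10, and their log2 fold changes at week 10 against week 6 ran from -3.33 (Cyp2f2) to 1.33 (Cyp2r1, which activates vitamin D), with a median of -0.56. Cyp20a1, an orphan enzyme, had 32.1, 23.9 and 26.8 CPM at week 10 and 23.1, 23.0 and 23.8 CPM at week 6, apart from each other but not past the test (edgeR adjusted p = 0.312).

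Enzymes that serve the P450s were followed through lists fixed with earlier results known. With cage as a factor none of the genes in these lists was called at weeks 10, 12 or 14 against week 6, beside 2 of all genes at week 10 and 0 at weeks 12 and 14. Of 9 electron donors and partners, 4 fell and 1 rose at week 10 against week 6 (44.4% and 11.1%, beside 9.48% and 14.6% of all genes). Without week 10 replicate 1, and on log2(TPM + 1), 0 of the 9 were called. Por, the reductase that feeds the microsomal enzymes, averaged 41.3 ± 6.55 CPM at week 10 and 88.5 ± 4.74 CPM at week 6 (SD, n = 3 each; -1.10 ± 0.31, edgeR adjusted p = 0.0243). Fdxr, which serves the mitochondrial ones, fell by 1.01 ± 0.31 (adjusted p = 0.0342), and Cyb5r3 and Pgrmc2 fell by 0.60 ± 0.21 and 0.57 ± 0.18. Cyb5r1 rose by 0.78 ± 0.25.

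Of 12 haem genes, 2 rose and 0 fell at week 10, and the 16.7% that rose was close to the 14.6% of all genes called higher. One of the risers was Alas1, the first enzyme of haem synthesis (0.86 ± 0.27, edgeR adjusted p = 0.0337), and without week 10 replicate 1 no haem gene was called. Of 13 sensors of foreign compounds and bile acids, 2 rose and 1 fell, 15.4% and 7.69%, also near the shares of all genes. Nr1h4 (the bile acid receptor FXR) rose by 1.81 ± 0.39 and Tiparp by 1.33 ± 0.27, and Ahrr, a repressor and target of the aryl hydrocarbon receptor, fell by 1.67 ± 0.48. Of 10 tested lipid, retinoid and steroid regulators, 3 fell (30%, beside 9.48% of all genes) and 0 rose, among them Nr5a2 (by 1.99 ± 0.58) and Rara (by 1.15 ± 0.34), and without week 10 replicate 1 none was called. Of 4 epoxide hydrolases, Ephx2, which hydrolyses fatty acid epoxides made by P450s, fell by 1.28 ± 0.36 (adjusted p = 0.0256).

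In the retinoid supply list, 2 of 10 tested genes rose and 2 fell at week 10 (20% each, beside 14.6% of all genes higher and 9.48% lower). Without week 10 replicate 1, 1 was called higher and 0 lower. Dhrs9, a retinol dehydrogenase, averaged 91.9 ± 63.8 CPM at week 10 and 4.18 ± 2.03 CPM at week 6 (SD, n = 3 each; 4.46 ± 0.74, edgeR adjusted p = 0.00318), and Rdh10 rose by 1.76 ± 0.53. Aldh1a1 and Dhrs3 fell by 1.61 ± 0.52 and 0.70 ± 0.20. Among the P450 genes that carry other symbols, Cyp51, which demethylates lanosterol in cholesterol synthesis, rose by 1.02 ± 0.34 (adjusted p = 0.0413) and Ptgis, the prostacyclin synthase, fell by 1.22 ± 0.41 (adjusted p = 0.0434). At week 12 against week 6, Nr1h4 alone of these lists passed the test, higher by 1.66 on the log2 scale (edgeR adjusted p = 0.0451).

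At week 14 against week 6, where 24.5% of all genes were called higher and 8.56% lower, 7 of 12 haem genes rose, among them Uros (2.44 ± 0.53) and Blvra (1.85 ± 0.38), and 0 fell. Of the electron donors 4 rose, among them Cyb5a (1.88 ± 0.42) and Fdx1 (1.62 ± 0.37), and 2 fell, Por (by 1.03 ± 0.31) and Pgrmc2 (by 0.60 ± 0.18). Week 14 replicates 2 and 3 are the libraries of RIN 6.5 and 5.8 with neutrophil sums of 16821 and 11690 CPM, and the part of either in these changes was not tested. With RIN as a covariate, 0 genes of either list and 0 of all genes were called. RIN under 7 occurred only in these 2 libraries, so that fit cannot tell RIN and the difference between these mice apart. Without the 2 libraries 1 mouse remains at week 14, so no count is given. On log2(TPM + 1) the split turned to 1 higher and 5 lower among the haem genes and to 0 higher and 7 lower among the electron donors.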

How the data were processed

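Distal colon RNA of 18 mice was sequenced as paired-end reads, and the authors deposited transcript tables (expected counts and TPM, with length) and gene tables of counts and TPM; kallisto, FastQC and the mm10 genome are named in the submitters' processing notes. The gene table's counts are estimated counts that the authors rounded to whole numbers per gene, and they were used as deposited; TPM is as deposited by the authors. kallisto divides reads shared by similar transcripts by likelihood, so paralogs can exchange counts. The smallest row sum in the gene table was 50. For 44 of the 45 members the rounded transcript sum was within 2 counts of the gene count in every library.

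Tests used edgeR 4.0.16 in R 4.3.3 (TMM scaling, filterByExpr, quasi-likelihood F test, all 18 libraries in 1 fit of 6 group means, Benjamini-Hochberg adjustment over 16300 genes, threshold 0.05). The members, gene lists and tests were chosen with earlier results of these data known. CPM are TMM-scaled, the SE is the absolute log2 fold change divided by the square root of F, and a level compared between genes is TPM. Alternatives used DESeq2 1.42.0, limma 3.58.1 on log2(TPM + 1) or log2(TPM + 0.1), other scalings and filters, RIN, cage and replicate number as terms, and libraries left out. Text names every member called in a comparison or across ages, the 10 highest by mean TPM, the leading gene of each family, and from each pathway list at most 5 called genes per comparison, though not every gene the rule covers is reported here; Cyp11a1, Cyp26b1, Cyp20a1, Cyp2c23, Cyp2d22 (plotted), Hnf4a, Hnf4g, Cyp2j6, Cyp2r1, Cyp4f40 and Cyp7b1 were named after their values were seen. Tests were also run on simulated counts with 200 changed genes, and the outcome is not reported here. All groups in that simulation had the same spread, so it cannot show how the tests behave where groups differ in spread. Gene positions are from GENCODE M21 (GRCm38), and 97.7% of transcript IDs matched it.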

Additional observations from a re-analysis of the deposited data

How the results depend on the processing

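The 17 members called lower at week 10 against week 6 kept their direction in every alternative run that tested them. Counts in this section are of members called in either direction, without the share of all genes called in each run. They therefore do not show whether P450 genes were called more often than other genes. The count of 17 moved with the samples and the method. It was 21 with DESeq2, 17 with limma on log2(TPM + 1) and 13 on log2(TPM + 0.1). Library size alone gave 14, the compared groups alone 16, and 1 voom weight per group 18. With RIN as a covariate it was 22, and with wild type week 6 as the reference 25. Leaving out the 2 week 14 libraries of RIN under 7 gave 22, and leaving out all 3 gave 23. It was 0 with cage as a factor and 4 to 13 when 1 library was left out. The counts of 16, 21, 22 (with RIN), 23 and 25 include Cyp2d34-ps, which was higher at week 10. Its mean was 0.894 CPM at week 10, against 0.217 CPM in Il10KO and 0.107 CPM in WT mice at week 6. The 25 also include Cyp2r1, with a mean of 0.663 CPM at week 10 and 0.123 CPM in WT. At week 12 against week 6 the count of 3 was 7 with DESeq2, 7 with limma on log2(TPM + 1), 19 in a fit of the compared groups alone, 11 with RIN as a covariate, 13 without the 2 week 14 libraries of RIN under 7, 13 without all 3 week 14 libraries, 20 with 1 voom weight per group, 0 with cage as a factor and 0 without any 1 library. At week 14 against week 6 the count of 6 was 20 with limma on log2(TPM + 1), 22 on log2(TPM + 0.1) and 2 with library size alone. It was 0 in the compared groups alone, 3 with a replicate block, 0 with RIN and 0 with cage. Voom weights gave 0, and leaving out 1 library gave 0 to 21. Without the 2 libraries of RIN under 7 only 1 week 14 mouse remains, so no count is given. For week 10 against week 8, where 0 were called, DESeq2 called 8, a filter of 1 CPM called 1, RIN 10, leaving out the low-RIN or all week 14 libraries 13 each, voom weights 2, and leaving out 1 library 0 to 2. For week 12 against week 10 the count of 2 was 8 with DESeq2, 2 with log2(TPM + 1) and 1 with log2(TPM + 0.1), neither holding Cyp2c68 or Cyp2c69 (Cyp2d37-ps in both, Cyp2d33-ps in the first), 1 with library size alone, 0 in the compared groups alone, 1 with a replicate block, 9 with RIN, 0 with cage, 8 without the low-RIN libraries, 8 without week 14, and 0 to 3 without 1 library. Week 14 against week 12 gave 0 to 10 without 1 library. Across ages the 14 became 22 with DESeq2, 6 with library size alone, 8 in the compared groups alone, 22 with RIN, 0 with cage, 24 without the low-RIN libraries, 23 with voom weights and 5 to 27 without 1 library. Voom weights called 2 members at week 6 against wild type and 1 at week 8 against week 6. The voom weights and the fit without all week 14 libraries were added after seeing the data, as were the repeats of the pathway list counts.

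The week 14 rise of Cyp2d34 turned to -0.24 on both log2(TPM + 1) and log2(TPM + 0.1), and that of Cyp2d37-ps to -0.72 without the 2 libraries of RIN under 7; the cause was not tested. Of 962 gene-level repeats, 665 stayed on the same side of the threshold, 294 lost the call and 3 reversed. Library-size scaling moved the all-gene median to -0.26 at week 10, -0.15 at week 12 and -0.56 at week 14, each against week 6, to -0.24 for week 10 against week 8, 0.11 for week 12 against week 10 and -0.27 for week 14 against week 12. Replicate numbers did not pair the libraries (same-number correlations -0.62 to 0.48, 13 of 45 over 0.1), and a replicate block gave 15 members at week 10 and 2 at week 12 against week 6, and 10 across ages. Low counts limit Cyp1a1, Cyp2b10 and Cyp2d33-ps.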
